A study of Mus musculus with 12 samples.

Results

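The genes described here take part in the activation of plasminogen, or in its inhibition, at the cell surface and in the matrix. They are Plau, which encodes urokinase, Plaur, which encodes the urokinase receptor, Plat, which encodes tissue plasminogen activator, and Serpine2, which encodes the inhibitor protease nexin 1. They were chosen by name as plasminogen activation genes, several of them known targets of AP-1, the dimeric transcription factor that contains JUN. Of the 4 genes, 3 were represented, by 5 probe sets that carry their symbol alone: 1 for Plaur, 2 for Plat and 2 for Plau. Serpine2 is named by no probe set in the annotation used, and was not analysed here. The whole table names 18193 genes through 34945 probe sets with a single symbol.

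Mouse osteoprogenitors were sorted from limb, skull cap, scapula, vertebra and rib bones into populations labelled SSC, CSP and Thy, with 4 arrays of each. All animals were JUN inducible mice, and induction in the young was by doxycycline in the mother's drinking water, with cells sorted after 2 days. The 6 groups were SSC JUN, SSC -JUN, CSP JUN, CSP -JUN, Thy JUN and Thy -JUN, with 2 arrays each, and -JUN is read here as the arm without induction. The titles name 5 mice: mice 4 and 7 gave all the JUN arrays, mice 3 and 3b gave the -JUN arrays of CSP and Thy, and mice 3 and 10 gave those of SSC. The labels give neither the promoter that drives the transgene nor the sort gates and exact age. Several arrays therefore come from the same animal, and p-values measure the spread between these arrays.

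Urokinase is a secreted serine protease that binds its receptor, a protein anchored in the outer leaflet of the cell membrane, and cleaves plasminogen to plasmin. Tissue plasminogen activator does the same mainly on fibrin. Plasmin dissolves fibrin, degrades matrix proteins, activates matrix metalloproteinases and releases growth factors, and in bone the system takes part in matrix turnover and fracture repair. In human cells the genes of urokinase and of its receptor have AP-1 sites in their control regions, which is why they are read here beside the induction of JUN.

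The sequence before the start of Plaur is shown because it holds a match to the AP-1 motif. The motif TGANTCA, which reads the same on both strands, was searched in the 250 bases before each start in RefSeq's promoter table for GRCm38.p6. It matched once before Plaur, 69 to 63 bases ahead of the start, and the match is in capitals below. The same motif was found in 6.75% of the 32851 promoters of that table. The related site TGACGTCA, which JUN binds with ATF partners, was found in 1.55% of them and not in this window.
Plaur promoter, chr7:24462233-24462482, GRCm38.p6, plus strand: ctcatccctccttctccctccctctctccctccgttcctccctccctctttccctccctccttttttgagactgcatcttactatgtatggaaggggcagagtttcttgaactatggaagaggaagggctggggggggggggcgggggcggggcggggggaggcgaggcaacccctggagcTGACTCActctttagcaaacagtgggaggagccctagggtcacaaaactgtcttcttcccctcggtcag

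Values are on the log2 scale and come from the authors' RMA, which subtracts background, gives every array the same distribution and combines the probes of each set. Correlations between arrays lay between 0.872 and 0.979. The sort label of Thy was met by its defining marker: Thy1 averaged 8.28 in SSC and 8.47 in CSP, against 12.98 in Thy. Of 7 listed osteoblast lineage markers, 4 were measured. Col1a1 averaged 15.05 to 15.38 in the 3 populations, Alpl 10.46 to 11.38 and Sp7 7.32 to 8.11. Ibsp averaged 12.73 in SSC, 10.98 in CSP and 9.95 in Thy (adjusted p = 0.0904 for SSC minus Thy in limma). Col3a1, listed with tendon and fibroblast genes, was about as high as Col1a1, at 14.94 to 15.27. Eng, listed as a sort marker of skeletal progenitors, averaged 8.09 in SSC, against 9.66 in CSP (adjusted p = 0.0132 in limma) and 9.63 in Thy. Of the same list, Mcam averaged 9.14 in CSP, against 11.09 in Thy (adjusted p = 0.00863 in limma). Itgav, Cd200, Enpep and Pdpn did not differ past the threshold between any populations. Whether these genes were used in the sorts is not given in the labels. The leukocyte marker Ptprc did not pass the filter on dim probe sets, with means of 5.81 to 6.25. Of 11 leukocyte and macrophage markers, however, 6 passed it: Cd14, Cd68, Csf1r, Lyz2, Fcer1g and Cd74. The means of Cd68 were 7.80 to 8.56 and those of Lyz2 7.93 to 8.99 in the 3 populations. Xist, a transcript of female cells, set mouse 3 apart: its 3 arrays read 12.49 to 13.20, and the remaining 9 read 6.11 to 7.29. Jun itself did not differ past the threshold in any population (JUN minus -JUN was 0.32 for SSC, -0.43 for CSP and -0.27 for Thy), and whether its probe set reads the transgene is not known.

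Plaur had higher mean values with JUN than without it in all 3 populations, and the difference did not pass the threshold in any of them. A JUN difference above 0 in all 3 populations was found for 30.9% of the 12516 genes tested, and the populations share mice. In SSC, Plaur read 11.55 and 10.50 in the JUN arrays, against 10.34 and 9.23 in the -JUN arrays. Both JUN arrays of SSC lay above both -JUN arrays, as they did for 22.7% of genes. In CSP, Plaur read 11.55 and 10.91 with JUN, against 10.34 and 11.17 without it. Here the arms overlapped, because CSP -JUN replicate 2 lay above CSP JUN replicate 2. In Thy, Plaur read 12.06 and 11.15 with JUN, against 10.81 and 11.14 without it. The arms of Thy did not overlap, by the narrow gap between 11.15 and 11.14, and 17.9% of genes were placed the same way.

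**Figure D1:**
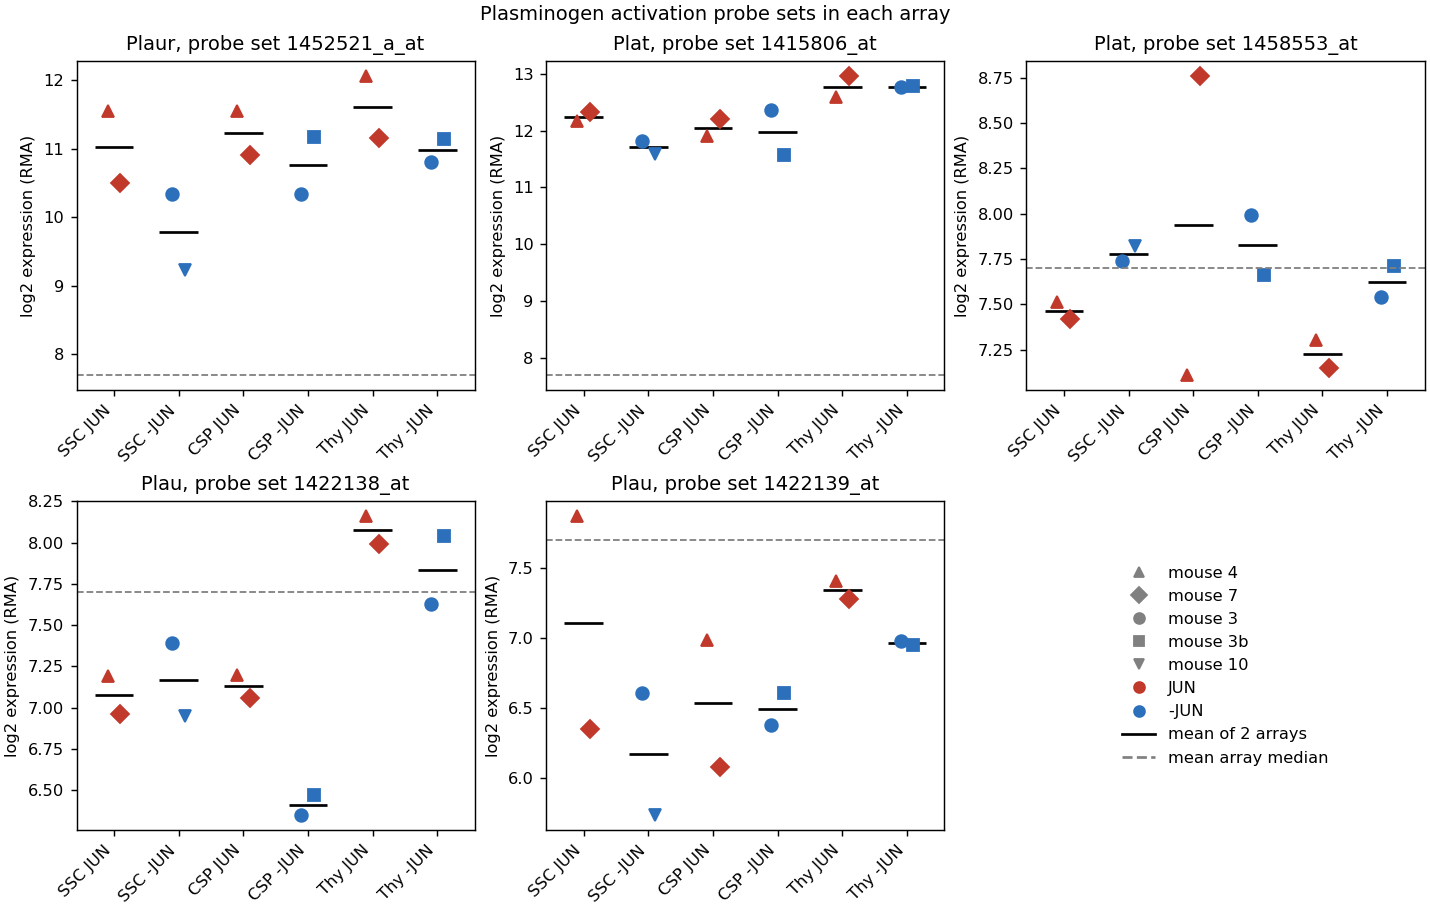
The log2 RMA value of each probe set of Plaur, Plat and Plau in each of the 12 arrays, by group, with mice as symbols, JUN in red, -JUN in blue, a bar at the mean of 2 arrays and a dashed line at the mean of the array medians. Plaur reads highest in the array of mouse 4 in each population (11.55, 11.55 and 12.06), and Plau probe set 1422138_at exceeds its array's median in 3 Thy arrays and in no SSC or CSP array.

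The difference of Plaur was 1.24 in SSC (SE 0.52, 95% interval 0.08 to 2.40, 2.36-fold, adjusted p = 0.690) in a limma model with a mean for each of the 6 groups (12 arrays, Benjamini-Hochberg adjustment). It was 0.47 in CSP (SE 0.52, adjusted p = 0.995) and 0.63 in Thy (SE 0.52, adjusted p = 0.985). Averaged over the populations it was 0.78 (SE 0.30, 95% interval 0.11 to 1.45, 1.72-fold), at an unadjusted p of 0.0263 and an adjusted p of 0.396. This fit treats the 12 arrays as independent, though the populations share mice. The SE, interval and p of the average therefore do not measure the spread between mice. No gene passed in limma in SSC, CSP, Thy or the average (0%). At an unadjusted p under 0.05 stood 813 genes in SSC (6.5%), 288 in CSP (2.3%), 380 in Thy (3.04%) and 1569 in the average (12.5%). Whether the JUN difference of Plaur varied between populations was tested as an interaction, which did not pass (adjusted p = 1). No gene passed that test (0%), and 144 had an unadjusted p under 0.05 (1.15%).

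The JUN values of Plaur rest largely on mouse 4. Its array was the highest of the 4 in each population, and it exceeded the array of mouse 7 by 1.05 in SSC, 0.64 in CSP and 0.92 in Thy. In CSP and Thy these gaps between the JUN mice exceeded the differences between the arms. Without mouse 4 the average difference of Plaur was 0.35, and without mouse 7 it was 1.22 (adjusted p = 0.0633). Without SSC -JUN replicate 3, which holds the lowest Plaur value, the difference in SSC was 0.69, and without SSC -JUN replicate 1 it was 1.79. In CSP it was 0.06 without CSP -JUN replicate 1 and 0.88 without CSP -JUN replicate 2. In Thy it was 0.17 without Thy JUN replicate 1 and 1.09 without Thy JUN replicate 2.

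Poly-A control RNAs, which are added to a sample before labelling, were higher with JUN in SSC and CSP. Their order by array matched that of Plaur in part. Both were highest in mouse 4 in SSC and Thy, and lowest in mouse 3 in CSP. The controls were highest in mouse 7 in CSP, where Plaur was highest in mouse 4. They were lowest in mouse 3 in SSC, where Plaur was lowest in mouse 10. The controls of Thy were lowest in mouse 3b, where Plaur was lowest in mouse 3. Their mean log2 value was 11.24 and 9.95 in the SSC JUN arrays, against 8.47 and 9.11 in the SSC -JUN arrays, so these arms did not overlap. It was 11.31 and 11.77 in CSP JUN, against 9.95 and 10.82 in CSP -JUN, again without overlap. In Thy the arms overlapped, at 12.28 and 11.34 with JUN, against 11.91 and 11.33 without it. With that mean as a covariate the difference of Plaur was 0.52 in SSC, 0.01 in CSP, 0.55 in Thy and 0.36 on average. Whether labelling had a part in the Plaur values was not tested. Junb, a JUN relative in AP-1, was placed like Plaur in SSC, at 13.10 and 11.68 with JUN, against 11.42 and 10.97 without it (difference 1.20, SE 0.49, adjusted p = 0.690). Jun in the same arrays read 13.18 and 12.13 with JUN, against 12.60 and 12.06 without it. Leukocytes also carry the urokinase receptor. The mean log2 value of 11 leukocyte and macrophage markers, all of them measured, was 6.64 to 7.08 in SSC JUN arrays, against 6.62 to 6.71 in SSC -JUN arrays. In CSP the same mean was 7.08 to 7.28 with JUN, against 6.63 to 7.09 without it. In Thy it was 7.08 to 7.14 with JUN, against 6.92 to 7.01 without it. Of the 11 markers, Ptprc, Itgam, Adgre1, Tyrobp and C1qa did not pass the filter on dim probe sets. The mean of 7 of 8 neutrophil markers did not overlap between the arms in any population. Of all single genes, 22.7% in SSC, 19.3% in CSP and 17.9% in Thy were higher with JUN without overlap, and the populations share mice. It was 6.57 to 6.78 with JUN, against 6.11 to 6.34 without it, in SSC. It was 7.38 to 7.58 with JUN, against 6.66 to 6.93 without it, in CSP. It was 7.42 to 7.51 with JUN, against 7.08 to 7.25 without it, in Thy. Of these markers Elane, Mpo and Ngp did not pass the filter.

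Markers of skeletal cell types shared part of the array order of Plaur. The mean of 7 chondrocyte markers, all of them measured, was 13.26 and 10.12 in SSC JUN, against 10.62 and 9.61 in SSC -JUN, highest in mouse 4 and lowest in mouse 10 as for Plaur. In CSP it was 12.96 and 10.35 with JUN, against 9.81 and 12.94 without it, which is the order of the Plaur values. In Thy it was 9.73 and 9.49 with JUN, against 8.56 and 9.94 without it, where mouse 3b and not mouse 4 was highest. The mean of 4 of 7 osteoblast lineage markers was highest in mouse 4 in each population, at 12.81 in SSC, 11.95 in CSP and 11.85 in Thy. The lowest and highest of the other arrays were 11.14 and 11.57 in SSC, 9.82 and 11.92 in CSP, and 10.30 and 11.48 in Thy. Below mouse 4 the order was not that of Plaur. The osteoblast mean was lowest in mouse 7 in CSP and Thy, where Plaur was lowest in mouse 3. The part of these skeletal and blood cells in the Plaur values was not tested, and in sorted bulk samples more expressing cells cannot be told apart from more RNA per cell.

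**Figure D2:**
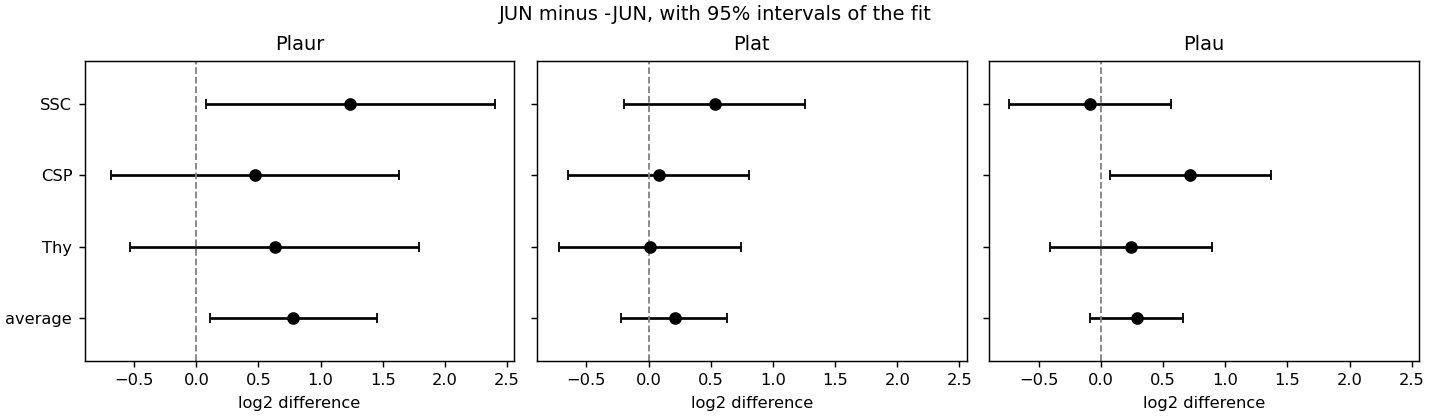
JUN minus -JUN log2 differences of Plaur, Plat and Plau in SSC, CSP, Thy and on average, with 95% intervals of the limma fit. The intervals of Plaur in SSC (0.08 to 2.40) and on average (0.11 to 1.45) and of Plau in CSP (0.07 to 1.37) lie above 0, and no adjusted p is under 0.05. The intervals of the average treat arrays of the same mouse as independent.

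Between populations, Plaur averaged 10.40 ± 0.95 in SSC, 10.99 ± 0.51 in CSP and 11.29 ± 0.54 in Thy (SD, n = 4 arrays each). Neighbours in this order overlapped, as did the populations at its ends. SSC minus CSP was -0.59 (SE 0.35, 95% interval -1.36 to 0.18, adjusted p = 0.888) and CSP minus Thy was -0.30 (SE 0.35, adjusted p = 0.763). SSC minus Thy was -0.89 (SE 0.35, 95% interval -1.66 to -0.11, adjusted p = 0.232). In these comparisons 0.431%, 0.991% and 0.391% of all genes passed. Over the 12 arrays, Plaur was most like Slc39a13, a zinc transporter gene (Pearson r = 0.97), Niban2 (r = 0.95) and Vgll4, a cofactor of TEAD transcription factors (r = 0.95). These arrays share mice and processing, and the values are descriptions.

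Plat was measured by probe sets that disagree. Probe set 1415806_at exceeded its array's median in 12 of 12 arrays and is the one tested for the gene. Probe set 1458553_at did so in 4 of 12 and spanned 7.11 to 8.76 over the arrays, both extremes lying in CSP JUN.

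By probe set 1415806_at, Plat had lower values in SSC and CSP than in Thy, though neither difference passed. SSC read 12.16 and 12.32 with JUN, against 11.82 and 11.59 without it. CSP read 11.90 and 12.20 with JUN, against 12.37 and 11.57 without it. Thy read 12.59 and 12.96 with JUN, against 12.76 and 12.78 without it, and the lowest Thy array lay above every SSC and CSP array. The means were 11.97 ± 0.33 in SSC, 12.01 ± 0.35 in CSP and 12.77 ± 0.15 in Thy (SD, n = 4 arrays each).

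SSC minus Thy was -0.80 for Plat (SE 0.22, 95% interval -1.28 to -0.32, 0.574-fold, adjusted p = 0.127) in a limma fit of population and induction over 12 arrays. CSP minus Thy was -0.76 (SE 0.22, 95% interval -1.24 to -0.29, 0.588-fold, adjusted p = 0.166). All 4 SSC arrays lay below all 4 Thy arrays, as they did for 5.18% of genes, and all 4 CSP arrays did so too, as for 4.29% of genes. Both comparisons use the same Thy arrays. SSC minus CSP was -0.04 with a 95% interval of -0.52 to 0.44. Probe set 1458553_at gave the opposite sign, with SSC minus Thy at 0.20 and CSP minus Thy at 0.46 (adjusted p = 0.755 and 0.704 over all 45037 non-control probe sets).

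No JUN difference of Plat passed. JUN minus -JUN was 0.53 in SSC (SE 0.33, 95% interval -0.20 to 1.26, adjusted p = 0.690), where the JUN arrays lay above the -JUN arrays, as for 22.7% of genes. It was 0.08 in CSP and 0.01 in Thy (SE 0.33 each, adjusted p = 0.995 and 0.998). The average of 0.21 had a 95% interval of -0.22 to 0.63 (adjusted p = 0.590). In CSP the sign turned to -0.32 without CSP -JUN replicate 2 and the difference was 0.48 without CSP -JUN replicate 1. With the poly-A controls as a covariate the average of Plat was 0.52 (adjusted p = 1). The genes most like Plat over the 12 arrays were the sorting nexin gene Snx19 (Pearson r = 0.95), the transporter gene Slc43a3 and the adhesion receptor gene Adgrd1 (r = 0.91 each).

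Plau was lower in CSP than in Thy, and of the 8 comparisons of the 3 genes this was the only one that passed. Its probe set 1422138_at averaged 6.77 ± 0.42 in CSP, against 7.95 ± 0.23 in Thy (SD, n = 4 arrays each), and 7.12 ± 0.21 in SSC. CSP arrays read 7.20 and 7.06 with JUN and 6.35 and 6.47 without it, and Thy arrays read 8.16 and 7.99 with JUN and 7.63 and 8.04 without it. Every CSP array lay below every Thy array, a placement found in 4.29% of genes. The gene passed the filter on dim probe sets only through Thy, with 3 of 4 Thy arrays above their array's median and 0 of 8 in SSC and CSP. A gene kept in this way had to be higher in Thy, so its direction among the filtered genes is fixed by the filter, and its SSC and CSP values lie in the lower part of each array.

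CSP minus Thy was -1.18 for Plau (SE 0.21, 95% interval -1.64 to -0.72, 0.441-fold, adjusted p = 0.0218), a comparison in which 0.991% of genes passed. Without any filter on dim probe sets the adjusted p was 0.0241 over 18193 genes and 0.0416 over 45037 probe sets tested one by one. With the mouse as a block, since the titles pair all 4 CSP arrays with Thy arrays of the same mouse, the difference was also -1.18 and did not pass (adjusted p = 0.0568). Leaving out an array or a mouse kept the difference between -1.29 and -1.05. The call was lost without CSP -JUN replicate 1 (adjusted p = 0.0819) or replicate 2 (0.0851), without Thy -JUN replicate 1 (0.0517) or replicate 2 (0.0846), and without Thy JUN replicate 1 (0.0565). It was also lost without mouse 3 (adjusted p = 0.177), 3b (0.202), 4 (0.0658) or 7 (0.0635). The second probe set, 1422139_at, read 6.08 to 6.99 in CSP and 6.95 to 7.41 in Thy, with a difference of -0.64 (SE 0.35, adjusted p = 0.644 over all probe sets).

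SSC minus Thy was -0.83 for Plau (SE 0.21, 95% interval -1.29 to -0.37, 0.563-fold, adjusted p = 0.110). The SSC arrays read 7.19 and 6.96 with JUN and 7.39 and 6.95 without it, all of them below the Thy arrays, as for 5.18% of genes. SSC minus CSP was 0.35 (SE 0.21, 95% interval -0.11 to 0.81, adjusted p = 0.888), and these arrays overlapped.

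**Figure D3:**
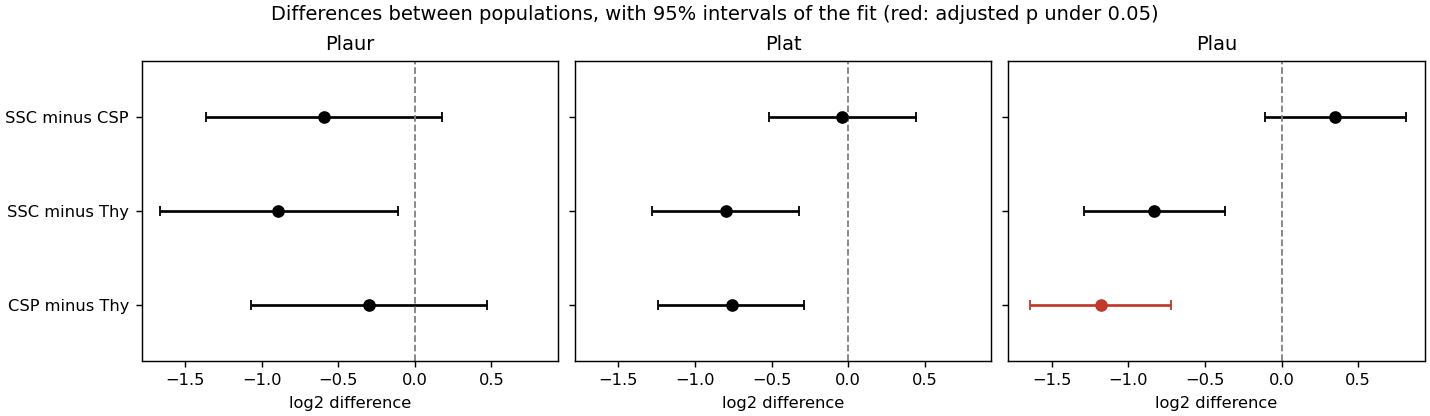
Log2 differences of Plaur, Plat and Plau between populations, with 95% intervals of the limma fit, in red where the adjusted p is under 0.05. Plau in CSP minus Thy (-1.18) is the value in red, and the intervals of Plat and Plau lie below 0 in both comparisons with Thy.

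The JUN differences of Plau varied with population and probe set, and none passed. In CSP, probe set 1422138_at was higher in both JUN arrays than in both -JUN arrays, by 0.72 (SE 0.29, 95% interval 0.07 to 1.37, 1.64-fold), as 19.3% of genes were placed. The unadjusted p was 0.0331 and the adjusted p was 0.995. All CSP values lay below their arrays' medians. The difference was -0.09 in SSC and 0.24 in Thy (SE 0.29 each, adjusted p = 0.927 and 0.985), and 0.29 on average (SE 0.17, adjusted p = 0.433). Probe set 1422139_at gave 0.04 in CSP, 0.94 in SSC and 0.38 in Thy, and its SSC value came from 7.87 in SSC JUN replicate 1 beside 6.35 in replicate 2. The interaction test of Plau did not pass (adjusted p = 1).

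**Figure D4:**
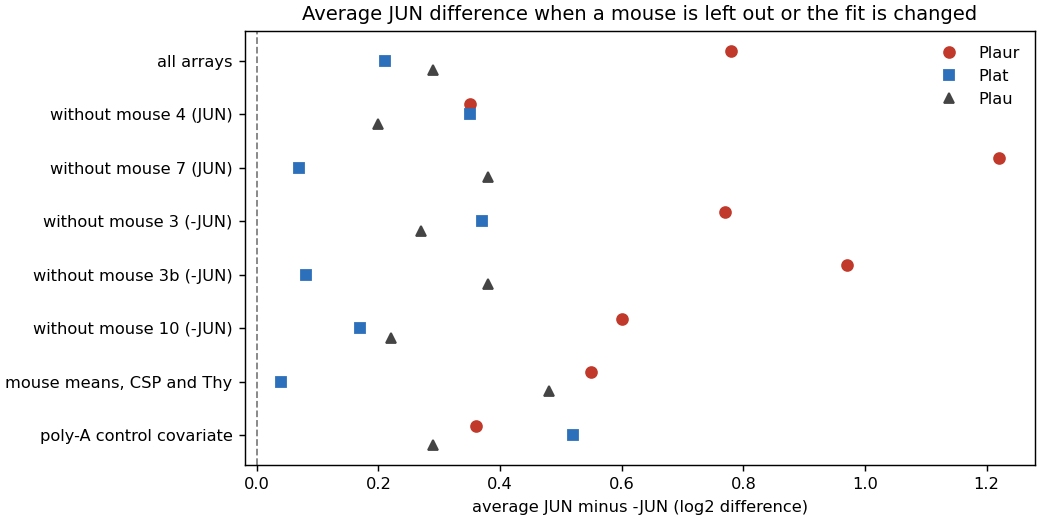
Average JUN minus -JUN log2 difference of Plaur, Plat and Plau with all arrays, without each mouse, from mouse means over CSP and Thy, and with the poly-A controls as a covariate. Plaur moves between 0.35 without mouse 4 and 1.22 without mouse 7, and every value shown is above 0.

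The genes most like Plau over the 12 arrays were Arhgdib (Pearson r = 0.92), Slfn5 and the matrix protein gene Tinagl1 (r = 0.90 each). CSP minus Thy was -1.65 for Arhgdib, -1.30 for Slfn5 and -2.53 for Tinagl1. These genes were picked for likeness to Plau over the same arrays. That choice favours a difference like that of Plau, so the values are descriptions and no support for it. The summed markers of pericytes and smooth muscle were placed like Plau and Plat between populations, but not each of them was. The mean log2 value of 7 such markers, all of them measured, was 10.30 to 10.54 in the CSP arrays and 10.72 to 11.23 in the SSC arrays, against 11.39 to 12.02 in the Thy arrays. Among them Rgs5 averaged 11.30 in CSP, against 13.96 in Thy (adjusted p = 0.00132), and Kcnj8 9.87 in CSP, against 12.08 in Thy (adjusted p = 0.0259). Acta2 averaged 11.81 in CSP, against 12.97 in Thy (adjusted p = 0.0274). Cspg4 averaged 11.79 in CSP, against 11.67 in Thy (adjusted p = 0.938), and Cnn1 stood at 0.11 for CSP minus Thy (adjusted p = 0.891). For SSC minus Thy the list was mixed, with Cnn1 at 1.15, Myh11 at 0.54, Acta2 at -0.06 and Cspg4 at -0.22. Abcc9 stood at -1.53, Kcnj8 at -1.84 and Rgs5 at -3.24, and of the list Rgs5 alone passed here (adjusted p = 3e-04 in limma). Endothelial cells are known for tissue plasminogen activator. The mean of 8 endothelial markers was 8.09 to 8.93 in CSP and 7.33 to 7.90 in SSC, against 7.66 to 8.45 in Thy. Single markers were not placed alike. Tek averaged 8.86 in CSP and 9.64 in SSC, against 9.95 in Thy. Kdr averaged 8.83 in CSP and 7.67 in SSC, against 7.63 in Thy, and neither gene passed between populations.

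Some Schwann cell and fibroblast genes, but not all of those listed, differed between CSP and Thy as well. The mean of 4 of 6 Schwann cell and glia markers was 7.97 to 8.36 in CSP and 9.72 to 10.47 in SSC, against 8.65 to 10.65 in Thy, so CSP and Thy did not overlap while SSC and Thy did. Sox10 averaged 7.73 in CSP, against 10.79 in Thy (difference -3.06, adjusted p = 0.00272 in limma), and Mbp 7.96 in CSP, against 10.84 in Thy (adjusted p = 0.0217). Foxd3 stood at -1.12 for CSP minus Thy and did not pass (adjusted p = 0.101). S100b went the other way, at 9.64 in CSP, against 8.77 in Thy (adjusted p = 0.578). The mean of 6 tendon and fibroblast markers was 12.36 to 12.73 in CSP and 12.07 to 12.44 in SSC, against 12.71 to 12.84 in Thy. Among them Pi16 was lower in CSP than in Thy (-2.79, adjusted p = 0.00727) and Tnmd was higher in CSP (1.18, adjusted p = 0.00816). The part of all these cells in the Plau and Plat values was not tested.

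Other genes of the plasminogen system were read from lists by role. Of 19 genes for docking and clearance of activators at the cell surface, 15 were tested, and 2 passed as lower in CSP than in Thy while 0 passed as higher. They were Vtn, which encodes vitronectin, a matrix protein bound by the urokinase receptor, and Itgb3, which encodes a subunit of vitronectin-binding integrins. Over all genes tested, 0.903% passed as lower in this comparison. The list's median of CSP minus Thy was -0.11, beside -0.04 over all genes. Vtn read 9.25 and 10.41 with JUN and 9.25 and 8.13 without it in CSP, against 12.33 and 10.95 with JUN and 11.06 and 11.18 without it in Thy. Every CSP array lay below every Thy array, as for 4.29% of genes. The average difference was -2.12 (SE 0.43, adjusted p = 0.0394).

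Itgb3 read 10.38 and 11.55 with JUN and 11.14 and 10.84 without it in CSP, against 12.52 and 12.12 with JUN and 12.10 and 12.33 without it in Thy. Its difference was -1.29 (SE 0.26, adjusted p = 0.0373), again without overlap, as for 4.29% of genes. With the mouse as a block neither passed (adjusted p = 0.0637 for Vtn and 0.0768 for Itgb3). Of 12 fits that each left out 1 array, each of the 2 genes passed in 3, with adjusted p-values of 0.0166 to 0.142 for Vtn and 0.0198 to 0.117 for Itgb3. Both calls held without SSC JUN replicate 1 or CSP JUN replicate 2, that of Vtn also without Thy JUN replicate 2 and that of Itgb3 also without SSC -JUN replicate 3. SSC minus Thy was -1.73 for Vtn (adjusted p = 0.102) and -0.82 for Itgb3 (adjusted p = 0.161), both without overlap, as for 5.18% of genes. Vtn is also expressed by pericytes, whose markers are given above.

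The other 13 tested genes of the docking list did not pass between CSP and Thy, with differences of -0.42 (Lrp1) to 0.38 (Itgav). Anxa2 and S100a10, which form a complex that holds plasminogen and its tissue activator at the membrane, stood at -0.22 and -0.16 (adjusted p = 0.598 and 0.744). Plgrkt, which encodes a plasminogen receptor, stood at -0.13 with a 95% interval of -0.75 to 0.48. Lrp1, which clears activators bound to their inhibitors, stood at -0.42 (adjusted p = 0.554). In no JUN comparison did a gene of this list pass, and the median of the average JUN difference was 0.08, beside 0.07 over all genes.

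**Figure D5:**
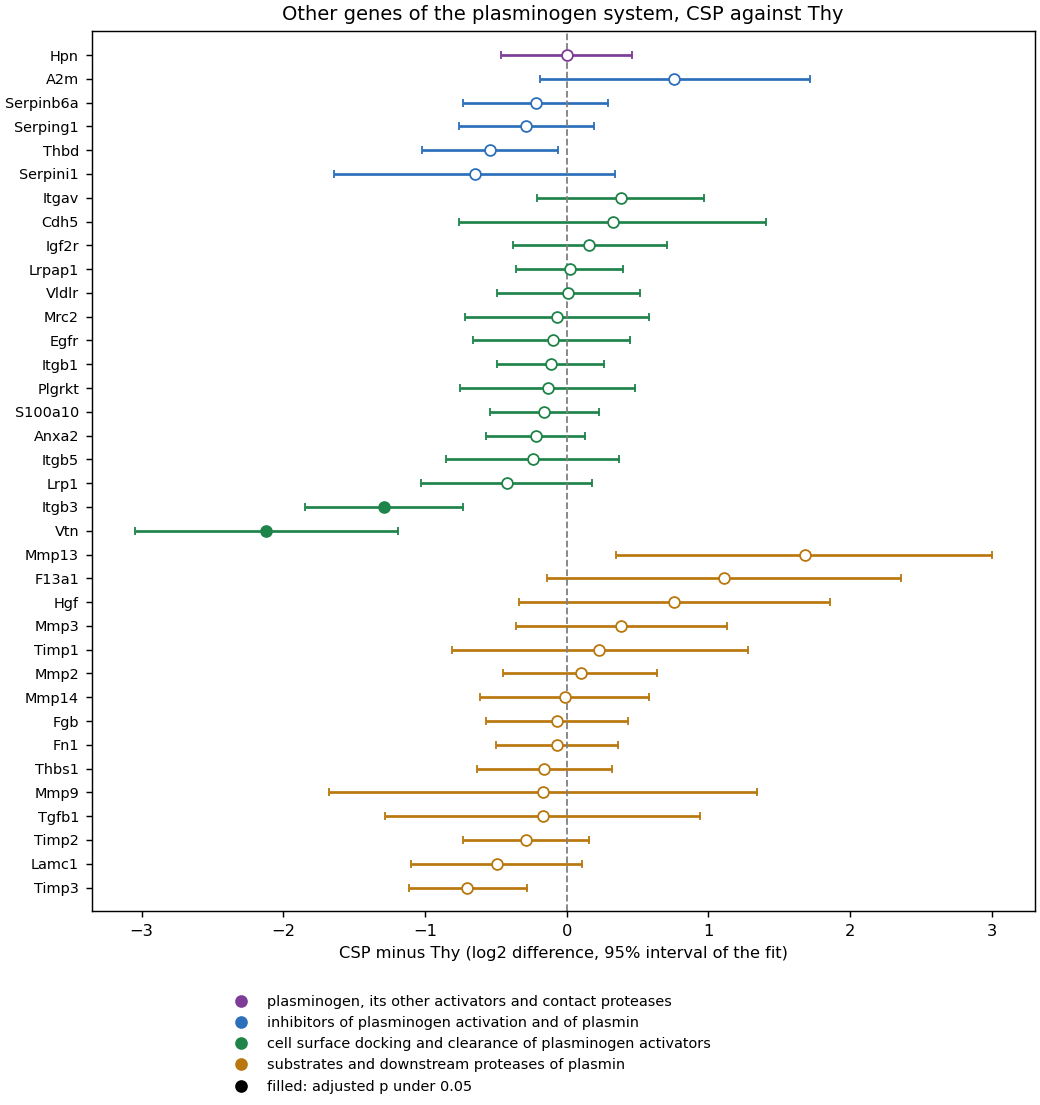
CSP minus Thy log2 differences, with 95% intervals of the limma fit, for the 36 tested genes of the plasminogen system outside the members, coloured by role and filled where the adjusted p is under 0.05. Vtn (-2.12) and Itgb3 (-1.29) are filled, and Mmp13 (1.68) has the highest value without passing.

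Of 11 inhibitor genes, 5 were tested and 0 passed in any comparison. Thbd, which encodes thrombomodulin, a surface protein that promotes inhibition of fibrinolysis, averaged 9.72 in SSC and 9.84 in CSP, against 10.38 in Thy. Its differences were -0.67 for SSC minus Thy and -0.54 for CSP minus Thy (SE 0.22 each, adjusted p = 0.172 and 0.360). Serping1, the C1 inhibitor gene, stood at -0.52 for SSC minus Thy (adjusted p = 0.248). Of 8 genes for plasminogen, other activators and contact proteases, Hpn alone was tested and it did not pass. Plg, which encodes plasminogen itself and is made mainly by liver, did not pass the filter on dim probe sets.

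Of 18 genes for plasmin's substrates and the proteases downstream, 15 were tested and 0 passed in any comparison. Mmp13, a collagenase of cartilage and bone, averaged 11.23 in SSC, against 8.59 in Thy, with every SSC array above every Thy array, as for 2.41% of genes, and a difference of 2.64 (SE 0.61, adjusted p = 0.0884). Timp3, an inhibitor of metalloproteinases, averaged 12.30 in CSP, against 12.99 in Thy (difference -0.70, SE 0.19, adjusted p = 0.145). Tgfb1, a growth factor whose latent form plasmin can activate, read 11.60 and 10.30 in SSC JUN, against 9.83 and 8.30 in SSC -JUN. As for Plaur, the highest SSC value was that of mouse 4 and the lowest that of mouse 10. The JUN difference of Tgfb1 was 1.88 in SSC (SE 0.69, adjusted p = 0.690) and 0.95 on average (SE 0.40, adjusted p = 0.396). In the same average Timp1 stood at 0.80 (SE 0.42, adjusted p = 0.414) and Mmp13 at -1.04 (SE 0.54, adjusted p = 0.414). Of the 15 genes tested, 11 had an average JUN difference above 0, with a median of 0.10, and 57.1% of all genes did, with a median of 0.07.

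Of 10 AP-1 family genes, all tested, 0 passed in any comparison. The median JUN difference of the family was 0.40 in SSC, -0.25 in CSP and -0.11 in Thy, beside 0.08, 0.07 and 0.04 over all genes. Atf2, which encodes a partner of JUN on TGACGTCA sites, stood at -0.77 on average (SE 0.29, adjusted p = 0.396).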

How the data were processed

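The deposited log2 values are RMA output, according to the submitters' processing notes, which name no settings. RMA shrinks differences among dim probe sets, and equal array distributions hide changes in total RNA. Of 45101 probe sets, 64 controls were set aside, and probe sets with a single symbol were used. A probe set was kept if it exceeded its array's median in at least 2 arrays, and the one with the highest mean stood for its gene, which gave 12516 genes. Limma 3.58.1 in R 4.3.3 (lmFit, eBayes, two-sided) was used with Benjamini-Hochberg adjustment at a threshold of 0.05. JUN differences came from the 6 group means (6 residual degrees of freedom), and population differences from a model of population and induction (8). The models were tested on simulated data. Members and lists were chosen with earlier results of these data known. By rule, the text names all members, list genes that passed or had the lowest p-values, and the 3 genes most like each member by Pearson r. Jun, Plg and Anxa2 were named outside it, after their values were seen.

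Same-mouse arrays of different populations are paired by the mouse in their titles. Their deviations from group means correlated at -0.214 to 0.429 over 10 pairs, 2 of them over 0.1. With 2 arrays a group the deviations mirror each other, so pairs repeat values. The 2 pairs over 0.1, both of SSC JUN with Thy JUN, hold the same value of 0.429. Replicate numbers do not pair JUN with -JUN arrays, which come from different mice. No scanner files were analysed here, so precision rests on the number of arrays.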

Additional observations from a re-analysis of the deposited data

How the results depend on the processing

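Members' differences kept their sign and side of the threshold in 210 of 213 refits other than those that left out an array or a mouse, some of them on the arrays of 1 or 2 populations. The exceptions were Plau in CSP against Thy with the mouse as a replicate block (-1.18, adjusted p = 0.0568), Plat in SSC against CSP with that block (0.02) and Plat under JUN in Thy with the mean of its probe sets (-0.20). Tests of each probe set without a filter were added after seeing the data. The replicate number of the labels as a replicate block, which pairs no animals, gave 0 genes for each JUN comparison and Plaur at 0.83 in SSC and 0.65 on average. Counts of genes past the threshold moved by over 1.5 times as follows, and the cause was not tested. SSC against Thy (49 genes) gave 24 without a filter, 75 with mean probe sets, 74 with arrays centred on their medians, 4 with the mouse as a replicate block and 16 from 8 arrays. SSC against CSP (54 genes) gave 8 with that block.

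When 1 array or 1 mouse was left out, the counts lay between 0 and 282 for JUN in SSC, 0 and 2 in CSP, 0 and 175 in Thy, 0 and 495 for the average, 7 and 62 for SSC against CSP, 3 and 304 for SSC against Thy, and 17 and 155 for CSP against Thy. The highest JUN counts in SSC, in Thy and on average came without mouse 7, which leaves JUN with mouse 4 alone. Under JUN, Plau lay between -0.31 and 0.13 in SSC, and Plat between -0.32 and 0.48 in CSP and between -0.18 and 0.19 in Thy. In SSC against CSP, Plat lay between -0.16 and 0.14. In CSP against Thy, Plau lay between -1.29 and -1.05.

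With 2 arrays a group, the JUN difference of Plaur could not be separated from the spread between mice. The tested probe set of Plau, 1422138_at, lies below the array medians in SSC and CSP.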
